A study of Mus musculus with 4 samples.

Results

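The comparison described here sets the chromatin contacts of TEA against those of Ed in naive B cells, in which Tcra/Tcrd, the joint locus of the T cell receptor alpha and delta chains, is silent. It rests on 2 of the 4 samples of the series and, within them, on 4 of the 16 libraries, those read from TEA and from Ed in naive B sample 1 and sample 2. The B samples were taken from the spleen of wild-type C57BL/6 mice, whose age is not labelled. The other samples are thymocytes labelled DN from Rag2-/- C57BL/6 mice, which lack the recombinase that joins antigen receptor segments. Their protocol names litters of 3 weeks of age. For the B samples the labels carry the same protocol text, which speaks of thymocytes, and the isolation of B cells is not described in the labels used. Whether the B samples came from separate animals is not labelled either, so p-values do not measure a spread between animals. In limma they also rest on a spread moderated over all regions or windows, not on these 2 samples alone. Nothing in 4C data reads cell type markers, so the label naive B could not be checked.

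In 4C-seq, crosslinked chromatin is cut with HindIII, ligated, cut again with DpnII, ligated into circles and amplified outward from 1 chosen fragment, the viewpoint, so that the fragments ligated to the viewpoint are read by sequencing. TEA (T early alpha) is an element with a promoter of unrearranged transcripts, placed before the first Jα segments, and it is known for a CTCF site and for transcription that opens the first Jα segments to recombination in thymocytes. Ed (E-delta) is the enhancer of Tcrd, which lies among the Tcrd segments just before TEA and is known to act in early thymocytes. Both elements stand at the border between the Tcrd segments and the Jα array, with the Trav genes on the lower-coordinate side and Trac and Dad1 beyond the Jα array. INT is the intergenic stretch between the Trav genes and the Tcrd D and J segments that holds the INT1 and INT2 viewpoints of the series, and it is known for CTCF sites.

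All positions are on chromosome 14 of build mm9. The viewpoint fragment, the one with the highest mean level over all libraries of a viewpoint, was 54763263 to 54765182 for Ed and 54769627 to 54773311 for TEA, with midpoints 7.25 kb apart. Because each viewpoint is read as a near neighbour of the other, the stretch from 54752000 to 54784000 was left out. Its edge toward Trav lies 12.2 kb from the Ed fragment and 19.5 kb from the TEA fragment, and its edge toward Jα lies 19.8 kb from Ed and 12.5 kb from TEA. Levels are the deposited RPM of each HindIII fragment (reads scaled by the authors to the mapped total of the library), rescaled to the chromosome 14 reads outside the left-out stretch, and a region's level is also given as its share of those reads. Regions carry the names of the locus map, but no mm9 annotation was used, so no gene was assigned to a fragment.

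From TEA the mapped reads numbered 11434923 in sample 1 and 17287420 in sample 2, and from Ed they numbered 3531308 and 6283713. Outside the left-out stretch chromosome 14 held 725808 and 1118367 reads from TEA and 246086 and 379357 from Ed. The floor of 3 reads, under which a level is not told from 0, is worth 4.13 and 2.68 RPM in the TEA libraries and 12.2 and 7.91 RPM in the Ed libraries. These reads are PCR copies without molecular identifiers, so floors cover counting error only. The left-out stretch took 29.8% ± 2.37 of chromosome 14 reads from TEA and 36.5% ± 4.99 from Ed (SD, n = 2). The read density on the other autosomes, applied to the length of chromosome 14, would give 69.6% and 68.2% of the outside reads from TEA and 61.9% and 71.9% from Ed.

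The Ed libraries stood apart in which fragments they captured, and the difference bears on each result given here. A fragment counts as captured when it has at least 1 read. Outside the left-out stretch TEA captured 6269 and 7475 fragments of chromosome 14 in samples 1 and 2, and Ed captured 2205 and 2624. With each library thinned to 246086 reads, TEA still captured 5489 and 6341 and Ed 2205 and 2371. On other autosomes, 15.3% of the fragments with 10 or more reads from Ed in sample 1 also had 10 or more from Ed in sample 2, against 5.43% of all 445410 fragments seen in the series. The ratio of these shares was 2.81 between the Ed libraries, and 3.35 to 3.97 between an Ed library of B cells and an Ed library of DN thymocytes. It was 1.09 between the TEA libraries and 0.986 to 1.03 between a TEA and an Ed library of B cells. The fragments that Ed captured with 10 or more reads were also longer, at a median of 4034 and 4124 bp against 3657 and 3719 bp from TEA. The part of this recurrence in the differences below was not tested, but the regions near the locus are also given over the fragments that had 10 or more reads from Ed in either DN sample. That choice uses Ed reads alone and so favours Ed.

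**Figure D1:**
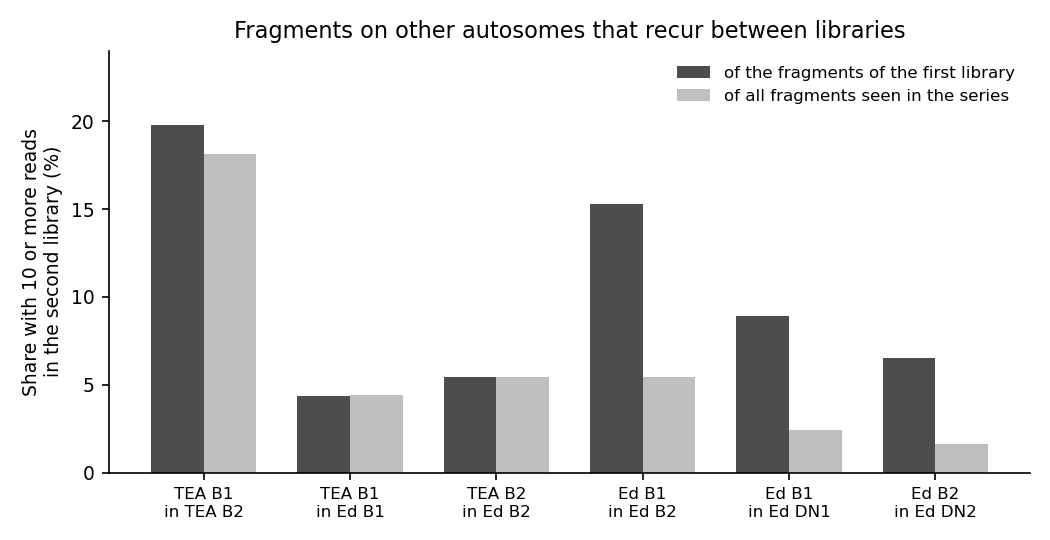
Share of fragments on other autosomes with 10 or more reads in a second library (%), among the fragments with 10 or more reads in the first library (dark bars) and among all fragments seen in the series (light bars), for 6 pairs of libraries. The dark and light bars are near equal for pairs with TEA (19.7% against 18.1% between the TEA libraries), and the dark bar is higher for each Ed pair (15.3% against 5.43% between the Ed libraries of B cells).

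In naive B cells INT was contacted more from TEA than from Ed, and the stretch between INT and Ed was contacted more from Ed. INT, from 54660001 to 54700000, held 2.97% and 3.33% of the outside reads from TEA in samples 1 and 2, and 0.941% and 0.778% from Ed. The inner stretch, from 54700001 to the left-out stretch, where the Tcrd D and J segments lie, held 2.13% and 1.62% from TEA and 8.87% and 6.54% from Ed. In neither region did the viewpoints overlap. Over the 12 regions tested, limma paired by sample called 4 higher from TEA (33.3% of those tested) and 2 higher from Ed (16.7%), and as the regions share 1 total and 2 of them join others, these calls are not independent.

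INT was 3.67-fold higher from TEA, with a log2 difference of 1.88 (SE 0.375, limma adjusted p = 0.00182), and 1.66 and 2.10 in samples 1 and 2. Over the 9 INT fragments with 10 or more reads from Ed in a DN sample, the shares were 2.46% and 2.70% from TEA against 0.941% and 0.778% from Ed, a log2 difference of 1.59 (adjusted p = 0.0028). The direction remained but the call ended over fragments with such reads in both DN samples (1.10, adjusted p = 0.139). The call also ended with all chromosomes as the library size (1.86, adjusted p = 0.0761) and without the highest fragment of each library in a region (3.00, adjusted p = 0.0914). That last setting removed 54683880 to 54688070 from TEA and 54693468 to 54699805 from Ed, so it does not compare equal sets of fragments. With each captured fragment counted once, so that reads no longer weigh, the difference was -0.19 (adjusted p = 0.312). Measured by captured fragments as a share of all that a library captured, INT thus gave no higher value from TEA. Thinned to equal reads, TEA captured 12 and 13 of the 15 INT fragments seen in the series, and Ed captured 5 and 4.

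The inner stretch was 4.10-fold higher from Ed, with a log2 difference of -2.04 (SE 0.156, limma adjusted p = 2.32e-07), and -2.05 and -2.02 in samples 1 and 2. In limma without the trend the adjusted p was 0.00582. The difference remained in direction but was not called when the left-out stretch was widened by 10 kb on each side, at -0.79 (adjusted p = 0.0967). It also lost its call without the highest fragment of each library in a region, at -1.54 (adjusted p = 0.132). The 10 kb next to the left-out stretch thus held a large part of it.

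**Figure D2:**
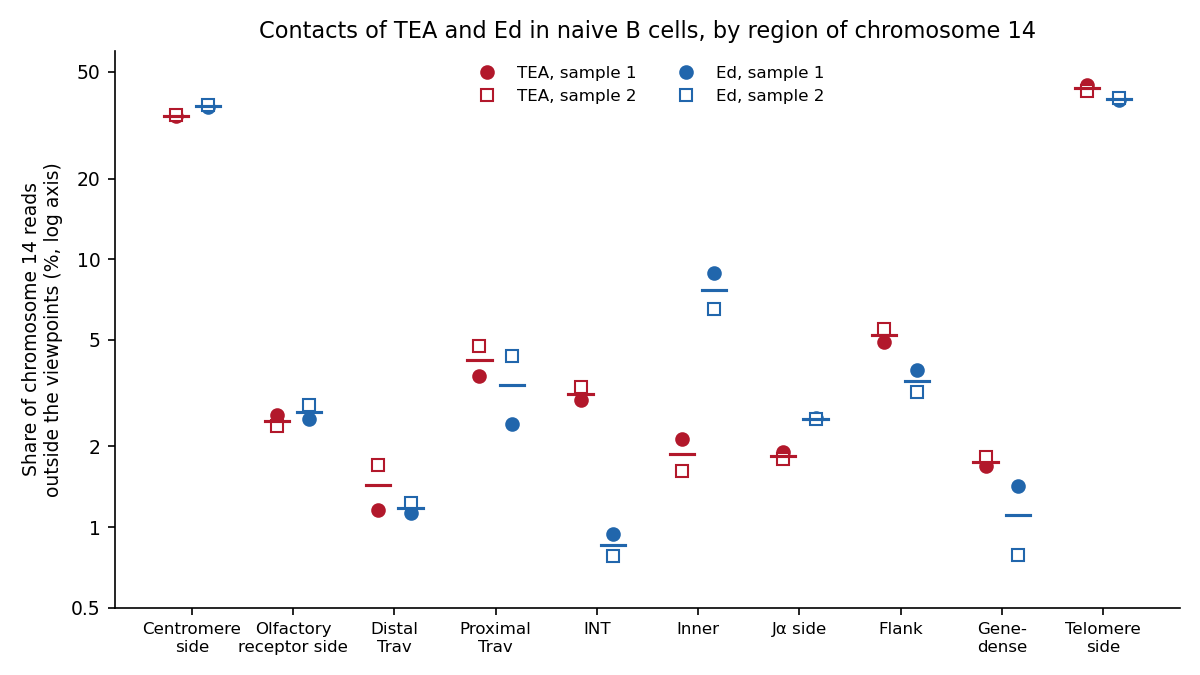
Share of chromosome 14 reads outside the left-out stretch (%, log axis) in 10 regions ordered along the chromosome, from TEA (red) and Ed (blue), with filled circles for sample 1, open squares for sample 2 and a line at the mean of 2. INT lies at 2.97% and 3.33% from TEA and below 1% from Ed, and the inner stretch shows the opposite order at 2.13% and 1.62% against 8.87% and 6.54%.

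Single INT fragments showed how different the profiles of TEA and Ed were. Of the 13 INT fragments with reads from TEA or Ed, 9 were higher from TEA in both samples and 3 higher from Ed in both. Over all 13501 chromosome 14 fragments with reads in these 4 libraries, 14.6% were higher from TEA in both samples and 3.38% from Ed. Most of the 13501 had reads in 1 library only, so this background is one of sparse capture.

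The highest INT fragment from TEA was 54683880 to 54688070, 78.2 kb from Ed, at 14912 RPM in sample 1 and 14615 RPM in sample 2. From Ed it had 3 reads (12.2 RPM) in sample 1 and 0 in sample 2. It alone made up 50.2% and 43.9% of the TEA reads on INT. Its neighbour 54688077 to 54690201 stood at 3690 and 7025 RPM from TEA and at 0 in both Ed libraries, at least 533-fold lower against the floor of 3 reads per library. The fragment at the outer end, 54662192 to 54668467, had 2623 and 4000 RPM from TEA and 0 from Ed in both.

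The viewpoint fragments of INT1 and INT2 were themselves read from TEA. The INT1 fragment, 54677060 to 54677623, had 3057 and 983 RPM from TEA in samples 1 and 2. The INT2 fragment, 54680988 to 54683873, had 1744 and 1450 RPM. Both had 0 reads from Ed in both samples of B cells. From Ed in DN thymocytes the INT1 fragment had 0 and 2383 RPM, so that a B library at 0 does not mark a fragment that Ed never captures.

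The INT reads of Ed lay on 3 fragments, which took 99.8% and 96.3% of them. The largest was 54693468 to 54699805, at the inner edge of INT and 67.6 kb from Ed, with 7233 and 5807 RPM from Ed against 900 and 1715 RPM from TEA. Fragment 54677630 to 54680981, which lies between the INT1 and INT2 viewpoint fragments, had 1674 and 1365 RPM from Ed and 412 and 806 RPM from TEA. These 3 fragments, the ones higher from Ed in both samples, took 4.73% and 7.76% of the INT reads of TEA. Their choice by these same values favours a low TEA share, and the part of the recurrent capture of Ed in it was not tested. With INT narrowed so that its outermost fragments, the largest of Ed among them, fell outside, the log2 difference was 3.70 (adjusted p = 0.000225).

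Most of these directions were also seen in DN thymocytes. From TEA the fragment 54683880 to 54688070 stood at 72935 and 104618 RPM in the DN samples, and from Ed at 571 and 127 RPM. On INT the TEA profile in B cells peaked on the same fragment as in thymocytes, at a lower share of reads. Of the 9 INT fragments higher from TEA in both B samples, 9 were higher from TEA in both DN samples. Of the 3 higher from Ed in both B samples, 2 were higher from Ed in both DN samples. This was not particular to INT. In the inner stretch 7 of 7 and 7 of 7 kept their direction, and in proximal Trav 48 of 56 and 14 of 21.

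**Figure D3:**
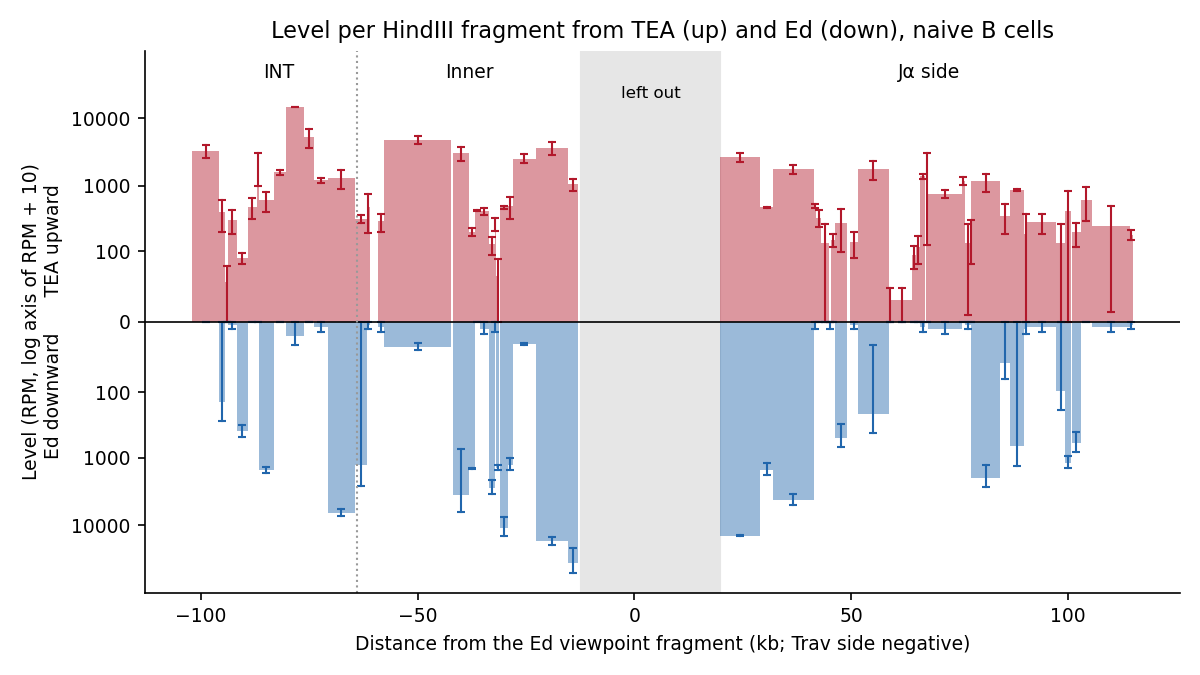
Level of each HindIII fragment in INT, the inner stretch and the Jα side, in RPM on a log axis of RPM + 10, from TEA upward and Ed downward, against distance from the Ed viewpoint fragment (kb). Bars are means of 2 samples, as wide as the fragment, ticks are the samples, and the dotted line is the border of INT and the inner stretch. The highest INT bar of TEA (14912 and 14615 RPM) faces almost no Ed reads, and the Ed bars are highest next to the left-out stretch.

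In the inner stretch the levels from Ed were carried by fragments near Ed. The fragment next to the left-out stretch, 54748881 to 54751228, stood at 51246 and 22050 RPM from Ed and at 853 and 1283 RPM from TEA, a 34.3-fold ratio of means. It held 57.8% and 33.7% of the inner reads of Ed. The next, 54741524 to 54748874, had 19640 and 15107 RPM from Ed and 4532 and 2897 RPM from TEA. Fragment 54733266 to 54735091, 30.0 kb from Ed, had 7717 and 14504 RPM from Ed and 453 and 501 RPM from TEA.

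Inner fragments high from TEA were again low from Ed. Fragment 54706512 to 54721932, the longest at 15421 bp, had 5417 and 4172 RPM from TEA and 4 reads in each Ed library (16.3 and 10.5 RPM). Fragment 54736165 to 54741517 had 2953 and 2163 RPM from TEA and 12.2 and 10.5 RPM from Ed, although it lies between fragments that Ed captured at over 1000 RPM. Fragment 54722436 to 54726136 did not separate the viewpoints, with 3763 and 2364 RPM from TEA and 756 and 6437 RPM from Ed. Of the 16 inner fragments with reads, 7 were higher from TEA in both samples and 7 from Ed. With each captured fragment counted once as a share of all that a library captured, the inner stretch was at -1.20 (adjusted p = 0.000143). The counts themselves went the other way, as TEA captured 15 and 16 of the 20 inner fragments seen in the series and Ed 13 and 12. Because Ed captured fewer fragments in all, that share does not show more captured inner fragments from Ed.

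On the Jα side the fragments closest to the viewpoints were higher from Ed and most of the others higher from TEA. The side, from 54784001 to 54880000, holds the Jα segments beyond the left-out stretch and, by the locus map, also Trac and Dad1. Its share was 1.90% and 1.79% from TEA and 2.54% and 2.53% from Ed, with no overlap, but the log2 difference of -0.46 (SE 0.274) did not pass the limma test at an adjusted p of 0.183. The direction was set by the fragment that follows the left-out stretch. Without the highest fragment of each library in a region, which was another fragment in TEA sample 1, the difference was 0.47 (adjusted p = 0.0914). With the stretch widened, which removed that following fragment from all libraries, it was 0.41 (adjusted p = 0.298). Over the 16 fragments with 10 or more reads from Ed in a DN sample it was -1.08 (adjusted p = 0.0187), and with library sizes taken over such fragments alone 0.26 (adjusted p = 0.627).

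That fragment, 54783906 to 54793249, lies 24.4 kb from Ed and 17.1 kb from TEA. It had 13934 and 14559 RPM from Ed and 2282 and 3127 RPM from TEA, a 5.27-fold ratio of means, and so was higher from the viewpoint that lies farther away. It made up 54.8% and 57.7% of the Jα side reads of Ed, and 17.4% of those of TEA in sample 2. Fragment 54793256 to 54796273 followed the same order, with 1829 and 1194 RPM from Ed and 474 and 487 RPM from TEA. So did 54796280 to 54805545, with 3511 and 4974 RPM from Ed and 2061 and 1515 RPM from TEA. In TEA sample 1 the highest fragment of the side was 54831430 to 54832049, at 3118 RPM or 16.4% of its reads there. That fragment had 125 RPM in TEA sample 2 and 0 in both Ed libraries.

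Farther along the Jα side TEA had the higher level on more fragments. Of the 32 fragments with reads on the whole side, 18 were higher from TEA in both samples. Ed was higher in both on 6, which include those next to the left-out stretch. Over all 13501 chromosome 14 fragments with reads, 14.6% were higher from TEA in both samples and 3.38% from Ed, a background of sparse capture. Fragment 54815779 to 54822924 had 1211 and 2318 RPM from TEA and 12.2 and 427 RPM from Ed. Fragment 54841960 to 54848613 had 825 and 1517 RPM from TEA against 2735 and 1286 RPM from Ed, so the samples did not order the viewpoints the same way. Across INT, the inner stretch and the Jα side together, 37 of 61 fragments had under 10 reads in both Ed libraries, and 29 of those 37 had 10 or more reads in both TEA libraries. All 18 fragments with 10 or more reads in both Ed libraries of B cells also had 10 or more from Ed in a DN sample. Of the 37 with under 10 reads in both, 18 did so too. In proximal Trav, 176 of 241 fragments had under 10 reads in both Ed libraries, and 37 of those 176 had 10 or more in both TEA libraries. There too all 24 fragments with 10 or more reads in both Ed libraries of B cells had 10 or more from Ed in a DN sample. Of the 176, 58 did.

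The Trav side showed a small difference whose call depended on the processing. The distal and proximal Trav regions together, 53000001 to 54660000, held 4.82% and 6.45% of the outside reads from TEA and 3.55% and 5.57% from Ed. TEA was higher in both samples, by 0.44 and 0.21 on the log2 scale, although the ranges over samples overlap. The paired log2 difference of 0.33 (SE 0.124) passed the limma test at an adjusted p of 0.0436. It was -0.17 (adjusted p = 0.773) over the 185 fragments with 10 or more reads from Ed in a DN sample, -0.066 with fragments capped at the 95th percentile and -0.29 with fragments counted once.

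Proximal Trav, 53800001 to 54660000, held 3.67% and 4.74% from TEA and 2.42% and 4.34% from Ed, a log2 difference of 0.36 (SE 0.165, adjusted p = 0.0829). Distal Trav, 53000001 to 53800000, held 1.16% and 1.71% from TEA and 1.13% and 1.23% from Ed, a difference of 0.26 (SE 0.492, adjusted p = 0.653). Single fragments weighed heavily in the proximal part. Fragment 54527060 to 54532525 had 398 RPM from Ed in sample 1 and 8765 RPM in sample 2, where it made up 20.2% of the proximal reads of Ed, against 2109 and 662 RPM from TEA. Fragment 54490078 to 54496109 had 0 and 3864 RPM from Ed, and 219 and 325 RPM from TEA. Fragment 54397860 to 54398417 had 2836 and 0 RPM from Ed and 503 and 697 RPM from TEA. In contrast, 54370643 to 54377747 was higher from TEA in both samples, at 1381 and 2813 RPM against 244 and 2.64 RPM. The same held for 54425916 to 54429550, at 2760 and 1496 RPM against 0 and 100 RPM. On 3 of the 5 highest proximal fragments the Ed samples thus fell on opposite sides of both TEA samples.

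The fall of contacts with distance toward Trav differed within 100 kb of the left-out stretch. From 0 to 50 kb, TEA gave 421 and 316 RPM per kb and Ed 1721 and 1309. From 50 to 100 kb, where most of INT lies, TEA gave 611 and 682 and Ed 258 and 204. The level of TEA was therefore higher in the farther of these bins than in the nearer in both samples, and that of Ed fell. From 200 to 500 kb the viewpoints overlapped, with 59.0 and 65.0 RPM per kb from TEA and 27.1 and 88.1 from Ed. From 500 to 1000 kb TEA gave 22.6 and 33.5 and Ed 23.9 and 19.1.

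Toward Jα, Ed gave 392 and 437 RPM per kb from 0 to 50 kb and TEA 246 and 215. The widest gap lay from 100 to 200 kb, with 105 and 95.4 RPM per kb from TEA and 7.36 and 14.02 from Ed, close to the 4.95 and 5.74 that Ed gave on other autosomes. From 200 to 500 kb Ed was back at 52.1 and 37.4 RPM per kb, against 49.0 and 66.6 from TEA. The bin of low Ed levels holds 26 fragments, and the part of the recurrent capture of Ed in it was not tested.

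**Figure D4:**
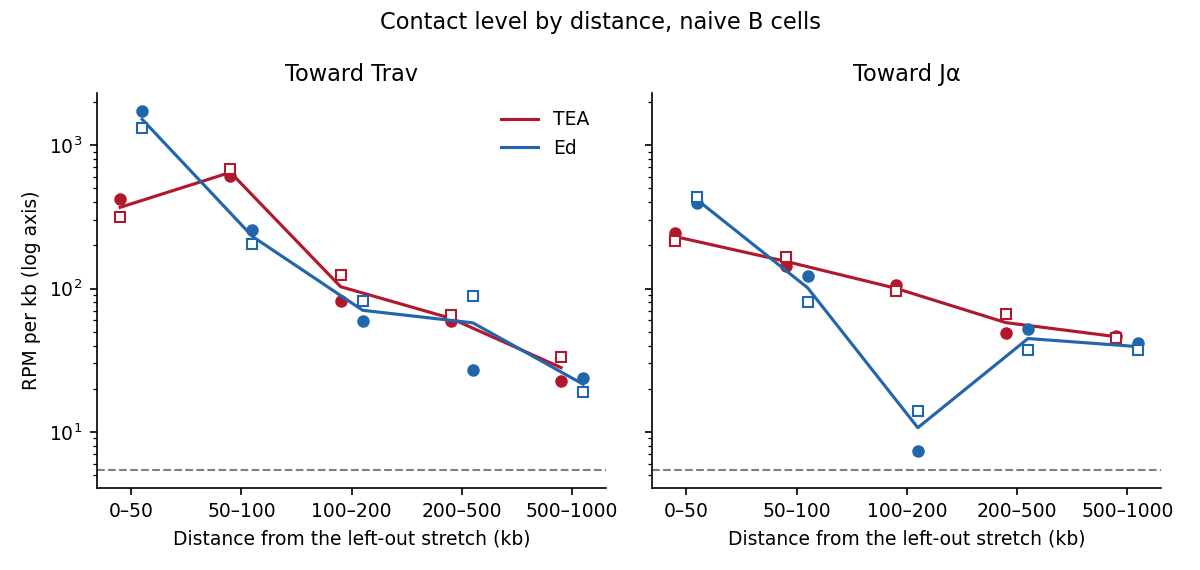
Contact level (RPM per kb, log axis) in 5 distance bins (kb) from the left-out stretch, toward Trav and toward Jα, from TEA (red) and Ed (blue). Lines join means, filled circles are sample 1, open squares sample 2, and the dashed line is the level on other autosomes. TEA stands at 421 and 316 RPM per kb in the first bin toward Trav and at 611 and 682 in the next, and Ed drops to 7.36 and 14.02 between 100 and 200 kb toward Jα.

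Beyond the Jα side TEA had the higher share. The flank, 54880001 to 55800000, held 4.92% and 5.50% from TEA and 3.85% and 3.19% from Ed, with no overlap and a log2 difference of 0.57 (SE 0.145, limma adjusted p = 0.00785). Over the 61 fragments with 10 or more reads from Ed in a DN sample the difference was -0.11 (adjusted p = 0.788), and with no replicate block it was not called (adjusted p = 0.078). The gene-dense stretch, 55800001 to 57000000, held 1.69% and 1.82% from TEA and 1.43% and 0.789% from Ed, a difference of 0.73 (SE 0.467, adjusted p = 0.195). The olfactory receptor side, 49700001 to 53000000, did not differ in a common direction, with 2.62% and 2.38% from TEA and 2.52% and 2.86% from Ed (log2 difference -0.11, adjusted p = 0.653).

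The shares of far chromosome 14 overlapped between the viewpoints. The arms below 49700000 and above 57000000 together held 78.9% and 77.1% from TEA and 76.3% and 77.8% from Ed, a log2 difference of 0.02 (SE 0.0337, adjusted p = 0.653). Within this sum the centromere side was higher from Ed, at 37.1% and 37.7% against 34.2% and 34.5% (log2 difference -0.12, adjusted p = 0.0339). The telomere side was higher from TEA, at 44.7% and 42.6% against 39.2% and 40.1% (0.14, adjusted p = 0.0171). Neither overlapped between viewpoints, at 1.09-fold and 1.10-fold. Neither call held in limma without the trend (adjusted p = 0.287 for both). Far chromosome 14 makes up most of the total that each library is scaled to. The density on other autosomes would alone give 61.9% to 71.9% of the outside reads. A far difference near 0 therefore does not show equal far contacts. With background subtracted the centromere side was at -0.54 (limma adjusted p = 0.114) and the telomere side at 1.53 (limma adjusted p = 0.261). The 1125 far fragments with 10 or more reads from Ed in a DN sample held 23.4% and 18.5% of the outside reads of Ed and 3.78% and 3.82% of those of TEA, an order that their choice by Ed reads favours.

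At 10 kb resolution, 183 windows within 1 Mb of the left-out stretch had a mean of at least 20 RPM. Limma called 0 higher from TEA and 0 from Ed (0% each), with a lowest adjusted p of 0.0905. Unadjusted, 48 windows had a p under 0.05, of which 42 were higher from TEA, and edgeR on recovered reads called 4 higher from TEA (2.19%) and 1 from Ed (0.546%). With no replicate block limma called 38 and 4. TEA was higher in both samples in 90 windows (49.2%) and Ed in 28 (15.3%). The median log2 difference over all windows was 3.45, and 43 windows had no read in either Ed library against 1 in neither TEA library. In the 78 windows with reads in all 4 libraries the median was -0.18, with TEA higher in both samples in 21 and Ed in 25.

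The window from 54680001 to 54690000 in INT had the largest difference, with 20346 and 23091 RPM from TEA and 12.2 and 0 RPM from Ed (edgeR adjusted p = 1.42e-13, limma adjusted p = 0.098). The window from 54750001 to 54760000, next to the left-out stretch, stood at 853 and 1283 RPM from TEA and 51246 and 22050 RPM from Ed (edgeR adjusted p = 2.17e-06, limma adjusted p = 0.0905). EdgeR also called 54710001 to 54720000 in the inner stretch, with 5417 and 4172 RPM from TEA and 16.3 and 10.5 RPM from Ed (edgeR adjusted p = 0.00218). On the Jα side it called 54830001 to 54840000, with 5489 and 2070 RPM from TEA and 4.06 and 5.27 RPM from Ed (edgeR adjusted p = 0.00355). In the flank it called 54980001 to 54990000, with 3151 and 586 RPM from TEA and 0 from Ed (edgeR adjusted p = 0.0496).

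The other windows with the largest differences toward TEA had no Ed reads in either sample. They were 54950001 to 54960000, at 1086 and 1089 RPM from TEA, 55520001 to 55530000, at 1172 and 766 RPM, and 54610001 to 54620000, at 583 and 1314 RPM. Toward Ed the largest difference was in 53870001 to 53880000, with 0 and 52.8 RPM from TEA and 581 and 1777 RPM from Ed. Then came 55620001 to 55630000, with 0 and 334 RPM from TEA and 780 and 2612 RPM from Ed. In 54170001 to 54180000, TEA gave 0 and 64.4 RPM and Ed 861 and 374 RPM. In 55610001 to 55620000, TEA gave 26.2 and 264 RPM and Ed 1398 and 907 RPM. These windows toward Ed were not called by limma or edgeR.

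**Figure D5:**
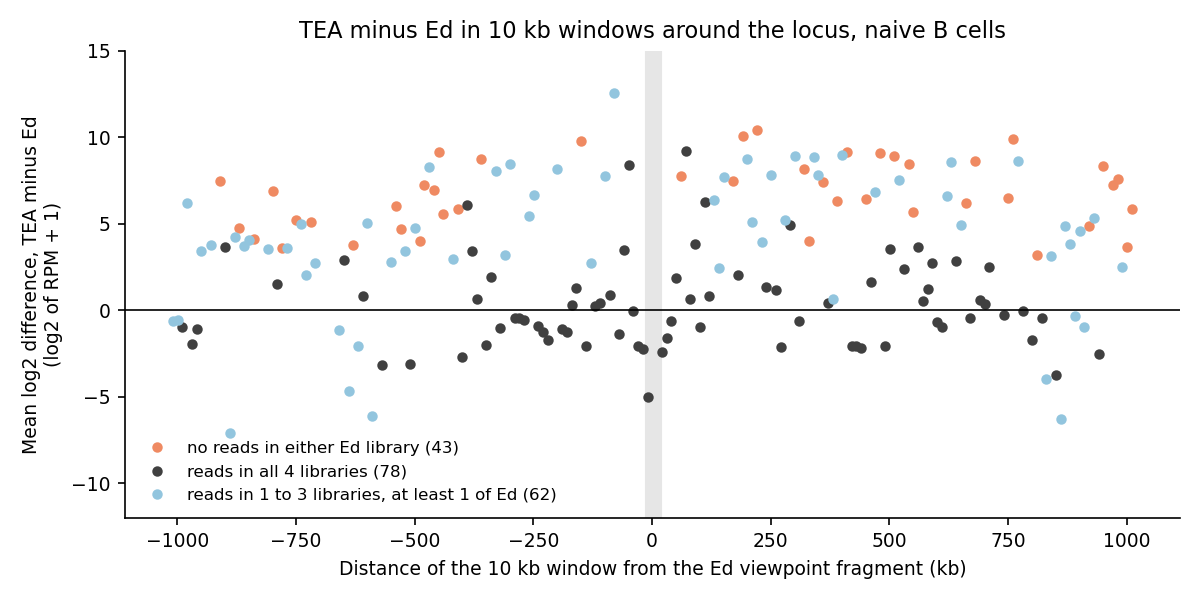
Mean log2 difference (TEA minus Ed, log2 of RPM + 1) of 183 windows of 10 kb against distance from the Ed viewpoint fragment (kb), with the left-out stretch shaded. Orange windows have no Ed read in either sample (43), black ones have reads in all 4 libraries (78), and blue ones lie between. The black points spread around 0, with a median of -0.18, while the orange points lie above 0.

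Over the 183 windows, with levels as log2(RPM + 1), Pearson's r was 0.386 between the TEA libraries and 0.521 between the Ed libraries. Between TEA and Ed it was 0.178 to 0.279, and Spearman's rho was 0.529, 0.499 and 0.219 to 0.330 in the same order. In 20 kb windows this order did not hold for TEA, with r = 0.442 between its libraries and 0.260 to 0.452 between TEA and Ed, and with fragments counted once the values were 0.259 and 0.131 to 0.289. The windows of a library share its depth and total, and they are a description of 4 libraries.

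In 231 far windows of 500 kb, limma again called 0 from TEA and 0 from Ed (0% each), with 23 at an unadjusted p under 0.05 and a lowest adjusted p of 0.442. The largest differences toward TEA were in 101500001 to 102000000, at 2659 and 2685 RPM from TEA and 8.13 and 490 RPM from Ed, and in 117000001 to 117500000, at 1655 and 5058 against 8.13 and 1558 RPM. In 121500001 to 122000000 TEA gave 1495 and 1373 RPM and Ed 8.13 and 501 RPM. Toward Ed, 15000001 to 15500000 had 3880 and 2894 RPM from TEA and 23028 and 13346 RPM from Ed. The windows 103000001 to 103500000, with 785 and 4082 against 6546 and 12244 RPM, and 17000001 to 17500000, with 2290 and 3071 against 18494 and 8960 RPM, followed.

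The contrast of TEA and Ed in B cells was last set against the same contrast in DN thymocytes, in 1 limma model of the 8 libraries. Limma called 0 of 12 regions in either direction (0% each), with 3 at an unadjusted p under 0.05. INT held 12.9% and 17.8% from TEA and 3.49% and 1.59% from Ed in DN thymocytes, a log2 difference of 2.69, and the difference in B minus that in DN was -0.81 (SE 0.507, adjusted p = 0.247). That value was -1.61 without DN sample 1 and -0.0055 without DN sample 2. Such fits leave 1 DN sample and take their spread from the B samples, so no call is given for them. The inner stretch held 12.6% and 15.1% from TEA and 19.4% and 34.9% from Ed in DN, a difference of -0.92. For it B minus DN was -1.12 (SE 0.355, adjusted p = 0.0517). That value was -0.83 without DN sample 1 and -1.41 without DN sample 2. On the Jα side TEA had the higher share in both DN samples, 5.23% and 6.13% against 4.41% and 3.17%, and Ed in both B samples. There B minus DN was -1.05 (SE 0.505, adjusted p = 0.191). It was -1.41 without DN sample 1, -0.70 without DN sample 2 and -0.27 with the left-out stretch widened (adjusted p = 0.678). Genotype, tissue and sequencing folder all differ between the cell types and cannot be told apart from them.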

How the data were processed

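The deposited files give reads per HindIII fragment as RPM of the mapped reads of a library, a normalization done by the authors. The submitters' processing notes name CASAVA, Bowtie and mm9, with no versions, and per the file headers fragments were padded by 40 bp. All values were whole multiples of 1 read within 0.01 read (100% in each library), so reads were recovered. The 8 averaged files were not used. Fragments absent from a file were set to 0. Regions, 10 kb windows and far 500 kb windows were summed and fitted as log2(RPM + 1) in limma 3.58.1 (R 4.3.3, mean-variance trend, the sample as block, two-sided, Benjamini-Hochberg at 0.05). A fold on this scale understates changes of low values. EdgeR 4.0.16, on recovered reads, called 4 and 1 windows where limma called 0. The sample is a block because each sample gave both libraries, although over 183 windows the deviations of libraries from 1 sample correlated at r = -0.00787. Named fragments were the 5 with the highest mean per region near the viewpoints. The INT1 and INT2 fragments, 1 inner fragment between named ones and 54831430 to 54832049 on the Jα side were chosen after their values were seen. Named windows were those called, or the 5 (far 3) with the largest difference per direction that both samples shared. Regions, lists and tests were chosen with earlier results of these data known. The fits were tested on simulated data. Tables used Python 3.11.15 with pandas 2.3.3, and plots matplotlib 3.10.9.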

Additional observations from a re-analysis of the deposited data

Results flagged for a closer look

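On the Jα side the contrast of TEA and Ed ran in opposite directions in the cell types, with Ed higher in both B samples and TEA higher in both DN samples. The direction in B was set by the fragment next to the left-out stretch. With the stretch widened, B was at 0.41, and B minus DN was -0.27 (limma adjusted p = 0.678). Without the highest fragment of each library, B was at 0.47, and B minus DN was -0.44 (limma adjusted p = 0.548). As planned, the difference in B minus that in DN was -1.05 on the log2 scale, and limma gave it an adjusted p of 0.191 over 12 regions. It was -1.41 without DN sample 1 and -0.70 without DN sample 2. With fragments capped at the 95th percentile it was 0.087.

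On the telomere side TEA was higher in both B samples and Ed in both DN samples. The difference in B minus that in DN was 0.78 (SE 0.345, limma adjusted p = 0.191). It was 1.19 without DN sample 1 and 0.38 without DN sample 2. With fragments counted once it was -0.14.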

How the results depend on the processing

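Values are log2 differences, TEA minus Ed in B, where not named otherwise, and the cause of each change was not tested unless named. Over the 19 alternatives with a test INT kept its direction and call in 15, with a range of -0.19 to 3.70, and the inner stretch kept both in 16 and its direction in all 19 (-2.69 to -0.70). Calls of the Trav side, the flank, the centromere side and the telomere side each ended or turned in 10 or more of the 19, and the Jα side turned in 4. The shallower Ed libraries limit what can be seen, since 3 reads are worth up to 12.2 RPM there.

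With library size over all chromosomes INT was at 1.86 (adjusted p = 0.0761). With library size within the locus the Trav side was at 0.44 and the olfactory receptor side at 0.010. With background subtracted the Trav side was at 0.46. In each of these settings 1 region was called higher from TEA and 1 from Ed, and with all chromosomes 1 region was called lower in B than in DN. With fragments capped the Jα side was at 0.25, the Trav side at -0.066, distal Trav at -0.24 and far chromosome 14 at -0.015, with 1 region called in each direction. B minus DN was then 0.78 for INT and 0.087 for the Jα side, and 36 and 3 windows were called higher from TEA and from Ed.

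With fragments counted once the values were -0.19 for INT, -0.29 for the Trav side, -0.25 for proximal and -0.36 for distal Trav, -0.13 for the flank, 0.010 for the olfactory receptor side, 0.016 for the centromere side and 0.022 for far chromosome 14 (adjusted p = 0.0209). B minus DN was 0.95 for INT, 0.22 for the inner stretch, 0.40 for the Jα side and -0.14 for the telomere side, with 1 region called in each direction. That setting also called 1 region in each direction in B and 33 windows in each direction, put the far window from 17000001 to 17500000 at 0.41, and gave r = 0.259 between TEA libraries, 0.362 between Ed libraries and up to 0.289 between TEA and Ed.

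Without the highest fragment of each library in a region INT was at 3.00 (adjusted p = 0.0914), the Jα side at 0.47, the Trav side at 0.43, the olfactory receptor side at 0.039 and INT in B minus DN at 0.30. Regions called then numbered 0 in each direction, and 2 in B against DN. With the left-out stretch widened the Jα side was at 0.41, the Trav side at 0.24 and far chromosome 14 at -0.073 (adjusted p = 0.000652), with 1 region called higher from TEA. With it narrowed the Trav side was at 0.33 (adjusted p = 0.0544).

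The paired fit was compared with no replicate block. The Trav side was then at 0.33 with an adjusted p of 0.400, 2 regions were called higher from TEA, and 38 and 4 windows were called, while no other call on regions changed beside the flank. The Trav side also stood at 0.33 and uncalled without a trend, with all 8 libraries in the fit, with INT narrow or wide, and in edgeR (adjusted p = 0.0505). All but edgeR called 1 region in each direction.

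The choice of fragments by their Ed reads in DN was added after the data were seen. Of the 1477 chromosome 14 fragments with 10 or more reads in either Ed library of DN, 237 had them in both. The choice thus favours Ed, although most of the fragments kept did not recur between the DN samples. Over fragments with 10 or more reads in either Ed library of DN, the Jα side was at -1.08, the Trav side at -0.17, proximal and distal Trav at -0.12 and -0.37, the flank at -0.11, the gene-dense stretch at -0.32, the telomere side at -2.43 and far chromosome 14 at -2.45. In that setting 1 region was called higher from TEA and 5 from Ed, 1 window was called in each direction, and r was 0.564 between TEA and 0.476 between Ed libraries. With library size over those fragments the Jα side was at 0.26, the telomere side at -1.09 and far chromosome 14 at -1.11. Over fragments with such reads in both Ed libraries of DN, INT was at 1.10 (adjusted p = 0.139), the Jα side at -1.31, the Trav side at -0.75, proximal and distal Trav at -0.71 and -1.03, the flank at -0.66, the telomere side at -3.84 and far chromosome 14 at -4.82, with 0 regions called higher from TEA and 7 from Ed.

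A pseudocount of 100 called 1 window in each direction, 5 kb windows 52 and 7, and centring on the median window 7 from Ed. Far windows of 1000 kb gave 9 and 2 calls and those of 250 kb 2 from Ed. TEA captured 2.85 times the fragments of Ed, and 2.58 times after thinning. In 20 kb windows r was 0.442 between the TEA libraries, below the 0.452 between TEA and Ed of sample 2.

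Leaving out 1 sample leaves a value with no test in B, from 1.66 to 2.10 for INT, 0.21 to 0.44 for the Trav side, -0.49 to -0.42 for the Jα side and -0.012 to 0.049 for far chromosome 14. For B minus DN the values ran from -1.61 to -0.0055 for INT and from -1.41 to -0.83 for the inner stretch. They ran from -1.41 to -0.70 for the Jα side and from 0.38 to 1.19 for the telomere side. Calls are not given there, as the lone sample would be assumed to vary like the others.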
